A study of Homo sapiens with 6 samples.

Results

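The genes described here encode MHC class I molecules and the machinery that loads them with peptide. They are HLA-B, HLA-C, HLA-E, HLA-F, B2M, TAP1, TAP2, TAPBP and NLRC5, taken by symbol from a deposited table of 51537 genes. These 9 genes matched 10 rows, because a second row named TAP2 (ENSG00000250264) is listed at 0 in all 6 libraries and was left aside. The other 9 rows were among the 16077 genes tested.

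The series holds poly(A) RNA-seq of H3122, a human lung adenocarcinoma line known for an EML4-ALK fusion, with 3 libraries labelled control and 3 labelled crizotinib-resistant. Crizotinib inhibits the ALK and MET kinases. The resistant cells were raised from H3122 by stepwise exposure from 0.1 to 10 µM of the drug. The sources used here do not say how many clones they came from or whether control cells received a vehicle. The library titles do not say whether resistant cells were in the drug at harvest. From the titles, drug exposure and resistance cannot be told apart. Nothing in the labels says that replicates were separate cultures, so the p-values cover the variation of these 6 libraries, part or all of which could be technical.

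An MHC class I molecule is a heavy chain, encoded by an HLA gene, held together with the light chain beta-2-microglobulin and a short peptide. Peptides made by the proteasome enter the endoplasmic reticulum through the transporter TAP, a dimer of TAP1 and TAP2, and tapasin, the product of TAPBP, bridges TAP to empty class I molecules. NLRC5 is a transactivator that, with RFX and NF-Y proteins, acts on the promoters of class I genes. On tumour cells these molecules show peptides to CD8 T cells and restrain natural killer (NK) cells.

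Values are TPM (transcripts per 1000000), which the authors scaled for gene length and library. A comparison of levels between genes therefore rests on the length used for each gene, which the sources used here do not give. Read totals rebuilt from the table put the depth at about 29856927 to 36695580 per library, with 15485 to 16272 genes at 1 TPM or more. Epithelial keratins were high: KRT8 was at 6492 ± 304 TPM (SD, n = 3) in control and 6226 ± 302 TPM (SD, n = 3) in resistant libraries. The lung lineage factor NKX2-1 was near the floor, at 0.0738 and 0.640 TPM. Markers of other cell types were low. Of 18 immune cell markers, 14 were under 1 TPM in every library, and CD2, MS4A1, LYZ and TYROBP were listed at 0 throughout. The summed level of the immune list was 10.5 to 10.9 TPM in control and 12.3 to 14.5 TPM in resistant libraries, and CSF1R, the one immune marker with a group mean over 5 TPM, rose from 3.03 to 5.13 TPM. Its part in the results below was not tested. All 9 fibroblast markers were under 1 TPM in every library. Of 7 endothelial markers, 4 were under 1 TPM throughout, with a summed level of 35.3 to 36.6 and 38.2 to 41.1 TPM that came mostly from ENG, at 27.2 and 32.9 TPM, and from CDH5, at 7.24 and 3.45 TPM.

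Resistant cells had more mRNA for HLA-B, HLA-C, HLA-F, TAP1, TAP2 and TAPBP. The largest difference was in HLA-B, with 3.20 times the control TPM, and the others had 1.14 to 2.06 times the control TPM. B2M, HLA-E and NLRC5 did not pass the test. By limma on log2(TPM + 1) with Benjamini-Hochberg adjustment over all genes tested, 6 of 9 genes were called higher at an adjusted p below 0.05, where 24.0% of all genes tested were called higher. None (0 of 9) was called lower, where 24.7% of all genes were; 1 of the 9, HLA-E, was lower at an unadjusted p below 0.05, and a count model, limma-voom applied to the rebuilt reads, called 1 lower, NLRC5. Changed genes were thus common in the whole table (48.6% called in either direction), and these counts are read against that. The median log2 change of the 9 genes was 0.23, against -0.0044 over all genes tested.

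**Figure D1:**
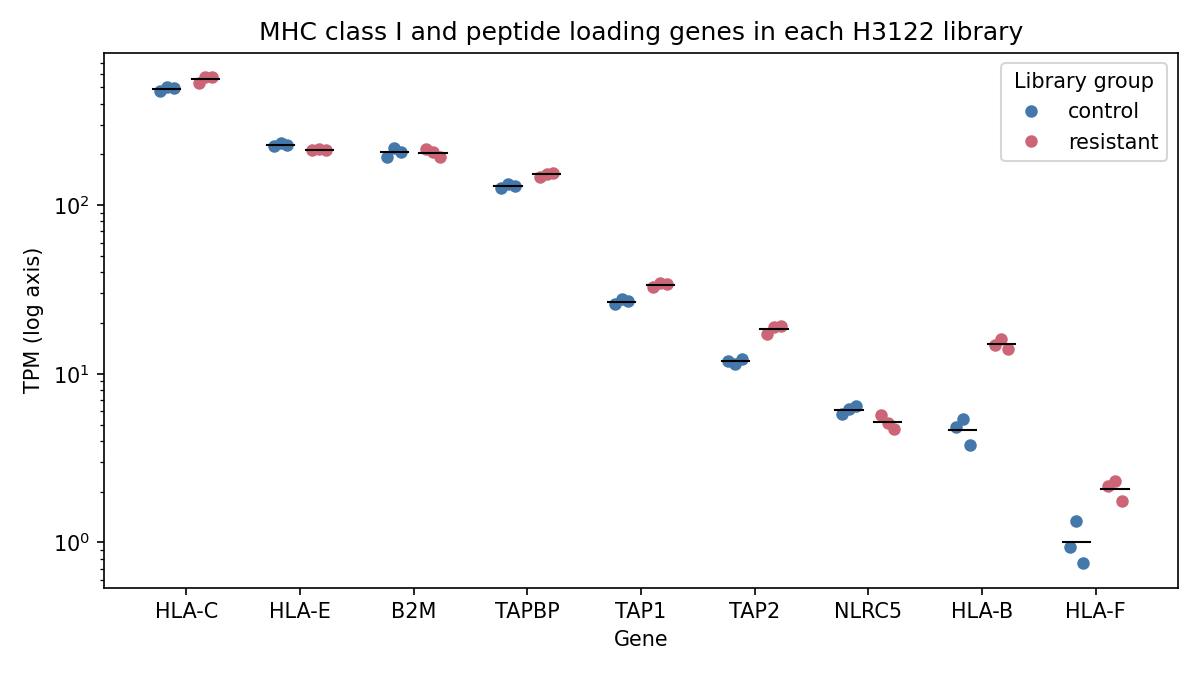
TPM of the 9 genes in each library on a log axis, with control and resistant libraries side by side; each point is a library and each line a group mean. HLA-C was the highest in every library (477 to 572 TPM) and HLA-F the lowest (0.752 to 2.31 TPM), and the groups overlapped for B2M alone of the 9, where 57.9% of all genes tested had groups that did not overlap.

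The order of the genes by TPM, which rests on the gene lengths used, was nearly the same in both groups. In control libraries the order from the top was HLA-C, HLA-E, B2M, TAPBP, TAP1, TAP2, NLRC5, HLA-B and HLA-F, and no neighbours in it had overlapping ranges. In resistant libraries HLA-B moved above NLRC5. There HLA-E (213 to 214 TPM) and B2M (193 to 215 TPM) overlapped, with HLA-E above B2M in 2 of 3 libraries.

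HLA-B, HLA-C and their relatives encode the heavy chains that hold the peptide. HLA-B (ENSG00000234745, chromosome 6, 31269491 to 31357188, minus strand) was at 4.82, 5.41 and 3.76 TPM in the control libraries and at 14.7, 16.1 and 13.9 TPM in the resistant libraries. The lowest resistant library lay well above the highest control library. The log2 change was 1.50 ± 0.12 (SE; limma adjusted p = 6.29e-05). In reads, HLA-B rested on 119 to 138 reads in control and 407 to 440 reads in resistant libraries, which came out whole at a gene length of 3012 bp, close to the 3051 bp of the annotation.

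HLA-C (ENSG00000204525, chromosome 6, 31268749 to 31272130, minus strand) had the highest TPM of the group. It was at 477, 504 and 493 TPM in control and 532, 572 and 571 TPM in resistant libraries. The groups did not overlap, but the difference was small: the log2 change was 0.18 ± 0.04 (SE; limma adjusted p = 0.00992). With 10697 to 13875 reads per library, HLA-C was measured far more deeply than HLA-B. HLA-B and HLA-C lie side by side, and one annotated HLA-B transcript runs into the HLA-C gene.

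These 2 genes, the one that changed most and its abundant neighbour, are set side by side with B2M in the reference sequence upstream of their starts. Class I promoters carry a kappa B site, bound by NF-kB proteins, an interferon response element and an X2 and Y box module, which RFX, CREB and NF-Y proteins with NLRC5 are known to use. Shown are bases 185 to 46 before the RefSeq start for the HLA genes and 185 to 39 for B2M, 5′ to 3′ on the gene's strand, from RefSeq on GRCh38.p14. HLA-B is chr6:31357225-31357364 (minus strand), HLA-C chr6:31272138-31272277 (minus strand) and B2M chr15:44711332-44711478 (plus strand). Capitals mark matches on either strand to the kappa B consensus and the interferon response motifs, and the TGACG and ATTGG letters of the module on the gene's strand. Y box letters outside the module are in lower case. These are reference sequences, and the alleles of H3122 were not read here.
HLA-B: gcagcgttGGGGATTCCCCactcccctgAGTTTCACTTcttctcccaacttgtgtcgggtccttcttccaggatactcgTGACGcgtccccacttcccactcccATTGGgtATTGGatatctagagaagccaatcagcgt
HLA-C: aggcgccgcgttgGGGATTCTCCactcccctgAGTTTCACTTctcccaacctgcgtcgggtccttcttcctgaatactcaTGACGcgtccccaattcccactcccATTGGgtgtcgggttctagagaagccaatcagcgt
B2M: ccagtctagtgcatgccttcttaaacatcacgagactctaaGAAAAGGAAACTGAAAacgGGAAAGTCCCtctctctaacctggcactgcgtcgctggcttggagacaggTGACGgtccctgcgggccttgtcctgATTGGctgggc

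Motifs were searched on both strands of the 300-base RefSeq windows (250 bases before to 50 after the start), of which there were 35097, and 7 of the 9 genes had one. HLA-E and NLRC5 did not. TAP1 had 2 windows, at 32852712 to 32853011 and at 32853655 to 32853954, and only the latter held matches. The kappa B consensus matched in HLA-B, HLA-C, B2M, TAP1 and TAPBP, and in 11.3% of all windows. In HLA-B it matched in overlapping frames on both strands. The interferon response letters AGTTTC, any 2 bases, then TT matched in HLA-B, HLA-C, HLA-F and B2M, and in 1.57% of all windows. The direct repeat of GAAA around any 2 bases, a related interferon response form that can overlap the former, matched in HLA-F, B2M, TAP1, TAP2 and TAPBP, and in 3.58% of all windows. The letters TGACG followed by ATTGG on the gene's strand, with starts at most 35 bases apart, matched in HLA-B, HLA-C and B2M and in 0.507% of all windows. The 250 bases before the start were 89.0% identical between HLA-B and HLA-C, 79.8% between HLA-B and HLA-F and 78.2% between HLA-C and HLA-F. A match describes letters only. Of these 3 genes with the module, HLA-B had the large difference in mRNA, HLA-C the small one, and B2M none that passed.

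HLA-E (ENSG00000204592, chromosome 6, 30489467 to 30494205, plus strand) encodes a nonclassical heavy chain that presents signal peptides of other class I molecules to NK cell receptors. It was at 223, 233 and 228 TPM in control and 213, 214 and 214 TPM in resistant libraries. All resistant values lay below all control values, by a narrow margin, and the difference did not pass the test (log2 change -0.09 ± 0.04 (SE), 95% interval -0.18 to -0.01, limma adjusted p = 0.0627). It did pass, as lower, with TPM rescaled over nuclear protein-coding genes (adjusted p = 0.0105), a setting chosen after the data were seen.

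HLA-F (ENSG00000204642, chromosome 6, 29722775 to 29738528, plus strand), another nonclassical heavy chain, was the lowest of the 9. It was at 0.940, 1.34 and 0.752 TPM in control and 2.16, 2.31 and 1.76 TPM in resistant libraries, without overlap. The log2 change was 0.62 ± 0.16 (SE; limma adjusted p = 0.0163) on 37 to 98 reads per library, whole at a length of 4683 bp against 4342 bp in the annotation. On so low a gene the added constant sets much of this size: the log2 change was 1.0 with a pseudocount of 0.1 and 0.24 with a pseudocount of 5. HLA-F was the one gene of the 9 that had control libraries under the 1 TPM filter and passed it through the resistant libraries. Leaving out control replicate 3 ended the call (adjusted p = 0.0529), and so did leaving out resistant replicate 2 (adjusted p = 0.0651).

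**Figure D2:**
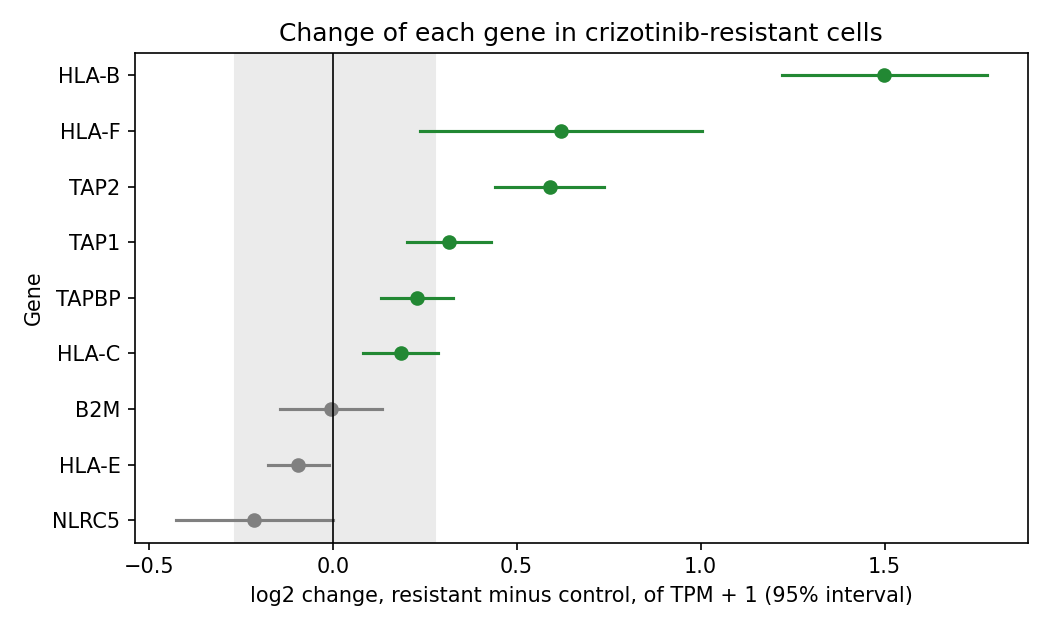
Log2 change of TPM + 1, resistant minus control, with its 95% interval from limma for each of the 9 genes; green marks an adjusted p below 0.05, grey the others, and the grey band spans the middle 50 percent of all genes tested. HLA-B lies far right of the others at 1.50, while B2M, HLA-E and NLRC5 lie at or left of 0.

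Reads of HLA genes can match more than one gene. In GENCODE 29, the exons of HLA-B and HLA-C share 35 bp on the same strand. Of the distinct 50-base words in annotated transcripts, 2.72% of those of HLA-B, 5.38% of HLA-C, 4.34% of HLA-E and 0.977% of HLA-F also occur in transcripts of another gene. At 100 bases these shares were 0 for HLA-B and HLA-F, 0.126% for HLA-C and 0.491% for HLA-E. The sources used here give neither the read length nor the handling of shared reads, so the split between HLA genes is uncertain. These words are those of the reference, and the alleles of H3122 were not read here. How well its HLA reads matched the reference was not tested, so the HLA levels are uncertain too. On the opposite strand, HLA-B exons share 542 bp (17.8%) with AL671883.2 and HLA-F exons share 701 bp (16.1%) with AL645939.1, 535 bp (12.3%) with HLA-F-AS1 and 257 bp (5.92%) with RPL23AP1. The sources used here do not say whether counting used strand, and without it reads of a gene and its antisense partner cannot be told apart.

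The sum over the 4 heavy chain genes depends less on that split. It was 706, 743 and 726 TPM in control and 762, 805 and 800.3 TPM in resistant libraries. The groups did not overlap, with a difference of 0.12 on the log2(TPM + 1) scale (exact permutation test, two-sided p = 0.1, the smallest that 3 against 3 allows). With median-ratio scaling the difference was 0.11 and the groups overlapped (exact permutation p = 0.2). Because HLA-C and HLA-E made up nearly all of it, the sum moved by a ratio of 1.09 only. HLA-B held 0.683, 0.728 and 0.518% of the sum in control and 1.93, 2.0 and 1.74% in resistant libraries. The share of HLA-C went from 67.8 ± 0.214% (SD, n = 3) to 70.8 ± 0.818% (SD, n = 3), and that of HLA-E from 31.5 ± 0.177% (SD, n = 3) to 27.1 ± 0.757% (SD, n = 3).

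**Figure D3:**
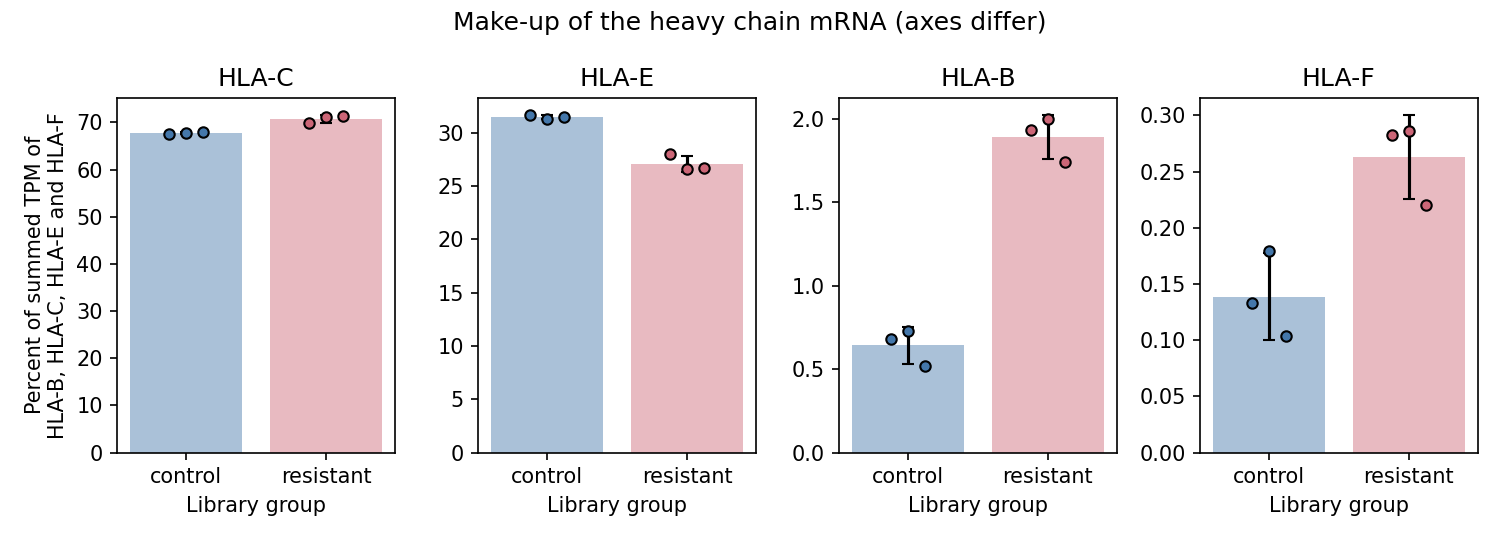
Percent of the summed TPM of HLA-B, HLA-C, HLA-E and HLA-F held by each gene, with points for libraries, bars for group means and error bars for the SD (n = 3); the 4 axes differ and start at 0. HLA-B held 0.518 to 2.0% in every library although its share was 2.94 times as large in resistant libraries, and HLA-E had a smaller share.

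Ratios within a library were used to ask whether the genes changed by different amounts, in 7 comparisons with two-sided exact permutation tests. The smallest p that 3 against 3 libraries allow is 0.1, so no ratio could pass 0.05. HLA-B relative to HLA-C was higher by 1.31 on the log2 scale in resistant libraries (p = 0.1, exact permutation test, adjusted p = 0.117), and the groups did not overlap. HLA-B relative to TAP1 was higher by 1.18, and HLA-F relative to HLA-C by 0.44, with the same p-values (exact permutation tests) and no overlap. HLA-E relative to HLA-C differed by -0.28, again with the same p-values (exact permutation test) and no overlap. The sizes for the low genes rested on the added constant. With a pseudocount of 5, HLA-B relative to HLA-C was higher by 0.86 and HLA-B relative to TAP1 by 0.77. HLA-F relative to HLA-C was higher by 0.81 with a pseudocount of 0.1 and by 0.052 with a pseudocount of 5, where the groups overlapped (exact permutation p = 0.4).

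B2M (ENSG00000166710, chromosome 15, 44711487 to 44718877, plus strand), the light chain that all class I heavy chains share, was level between the groups within its spread. It was at 193, 217 and 206 TPM in control and 215, 206 and 193 TPM in resistant libraries, with full overlap. The log2 change was -0.0049 ± 0.059 (SE), with a 95% interval of -0.14 to 0.13 (limma adjusted p = 0.955). The size of the ratio of summed heavy chains to B2M also rests on gene lengths. This TPM ratio was 3.65, 3.43 and 3.52 in control and 3.54, 3.91 and 4.15 in resistant libraries. These ratios overlapped (difference 0.13 on the log2(TPM + 1) scale, exact permutation p = 0.2, adjusted p = 0.2). The difference was 0.075 without resistant replicate 3 (exact permutation p = 0.4) and 0.19 without resistant replicate 1 (exact permutation p = 0.1).

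The peptide transporter and its bridge were higher in resistant cells. TAP1 (ENSG00000168394, chromosome 6, 32845209 to 32853978, minus strand) was at 25.8, 27.6 and 26.9 TPM in control and 32.5, 34.4 and 33.9 TPM in resistant libraries (log2 change 0.32 ± 0.05 (SE), limma adjusted p = 0.00147). TAP2 (ENSG00000204267, chromosome 6, 32821833 to 32838780, minus strand), its partner in the dimer, was at 11.9, 11.5 and 12.2 TPM in control and 17.3, 18.9 and 19.1 TPM in resistant libraries (log2 change 0.59 ± 0.06 (SE), limma adjusted p = 2.49e-04). TAPBP (ENSG00000231925, chromosome 6, 33299694 to 33314387, minus strand), which encodes tapasin, was at 126, 133 and 129.7 TPM in control and 147, 154 and 155 TPM in resistant libraries (log2 change 0.23 ± 0.04 (SE), limma adjusted p = 0.00301). For these 3 genes every resistant library was above every control library.

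The ratio of TAP1 to TAP2 mRNA was lower in every resistant library than in every control library. The plain TPM ratio was 2.17, 2.41 and 2.20 in control and 1.88, 1.82 and 1.78 in resistant libraries. On the log2(TPM + 1) scale the ratio differed by -0.27, without overlap (exact permutation p = 0.1, adjusted p = 0.117). TAP1 relative to TAPBP was higher by 0.086 with the same p-values (exact permutation test) and no overlap, and by 0.056 with a pseudocount of 5. TAP2 shares 2064 bp, or 32.3%, of its exon length on the same strand with the longer gene model ENSG00000250264, the second TAP2 row at 0. Of its distinct 50-base words, 31.3% also occur in transcripts of another gene, and 30.3% at 100 bases. For TAPBP and TAP1 the shares at 50 bases were 4.17% and 0.880%. The handling of shared reads is not stated, so the TAP2 values carry that doubt too. TAP1 shares 456 bp (9.49% of its exon length) with PSMB8-AS1 on the opposite strand, under the same doubt about strand as HLA-B and HLA-F.

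NLRC5 (ENSG00000140853, chromosome 16, 56989485 to 57083531, plus strand), the class I transactivator, was not higher in resistant cells. It was at 5.79, 6.17 and 6.44 TPM in control and 5.67, 5.12 and 4.71 TPM in resistant libraries. The resistant values were all below the control values, and the closest pair was 5.67 and 5.79 TPM. The log2 change was -0.21 ± 0.09 (SE), with a 95% interval of -0.43 to 0.0016 (limma adjusted p = 0.0923). The gene was called lower under median-ratio scaling (adjusted p = 0.0433) and by limma-voom from the rebuilt reads (adjusted p = 0.0319).

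Among 20 tested regulators of class I promoters, 5 were called higher and 8 lower, with a median log2 change of -0.067. Over all genes tested, 24.0% were called higher and 24.7% lower, so the count of higher calls is near that share. RFX5, the DNA-binding subunit of the RFX complex, fell from 39.2 ± 1.64 to 21.6 ± 1.30 TPM (SD, n = 3; log2 change -0.83). The other RFX subunits, named after their values were seen, fell too: RFXAP from 5.31 to 3.98 TPM and RFXANK from 52.4 to 46.2 TPM. NFYB, a subunit of the NF-Y complex that binds the Y box, fell from 21.8 ± 1.91 to 14.4 ± 1.30 TPM (SD, n = 3), while NFYA, also named after its values were seen, rose from 34.7 to 44.7 TPM. Among factors of interferon signalling, STAT2 rose from 22.3 ± 1.20 to 30.7 ± 0.685 TPM and IRF9 from 3.91 ± 0.240 to 6.30 ± 1.11 TPM (SD, n = 3). IRF2, an interferon regulatory factor, rose from 25.9 ± 1.08 to 36.2 ± 1.58 TPM (SD, n = 3). IRF1, a direct activator of class I genes named after its values were seen, did not pass (4.46 and 5.16 TPM, limma adjusted p = 0.152). RELA and NFKB1, NF-kB subunits that bind kappa B sites, were likewise named after their values were seen and fell, from 77.6 to 67.3 TPM and from 18.7 to 14.6 TPM.

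Of 20 genes that make, trim and load peptides, 7 were called higher and 5 lower, with a median log2 change of 0.12. Against 24.0% higher and 24.7% lower over all genes, the count of lower calls is near that share. PSME2, a subunit of the proteasome activator PA28, rose from 129 ± 8.32 to 191 ± 1.42 TPM (SD, n = 3). PSMB9, an immunoproteasome subunit encoded next to TAP1, rose from 19.8 ± 1.43 to 27.8 ± 1.88 TPM (SD, n = 3). Its fellow subunits, named after their values were seen, did not share this: PSMB8 was at 97.9 and 104 TPM and did not pass, and PSMB10 fell from 19.8 to 16.6 TPM. HM13, a signal peptide peptidase that releases the peptides HLA-E binds, rose from 99.3 ± 3.57 to 154 ± 5.97 TPM (SD, n = 3), and HSPA5, the endoplasmic reticulum chaperone BiP, from 288 ± 11.2 to 390.2 ± 16.4 TPM (SD, n = 3). TAPBPL, which encodes the tapasin-related peptide editor TAPBPR, fell from 16.3 ± 0.723 to 11.2 ± 0.409 TPM (SD, n = 3; log2 change -0.50), in contrast to TAPBP. NRDC, a peptidase, fell from 108 ± 5.90 to 54.4 ± 2.50 TPM (SD, n = 3). The trimming enzymes ERAP1 and ERAP2, named after their values were seen, did not pass (limma adjusted p = 0.0771 and 0.0840).

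**Figure D4:**
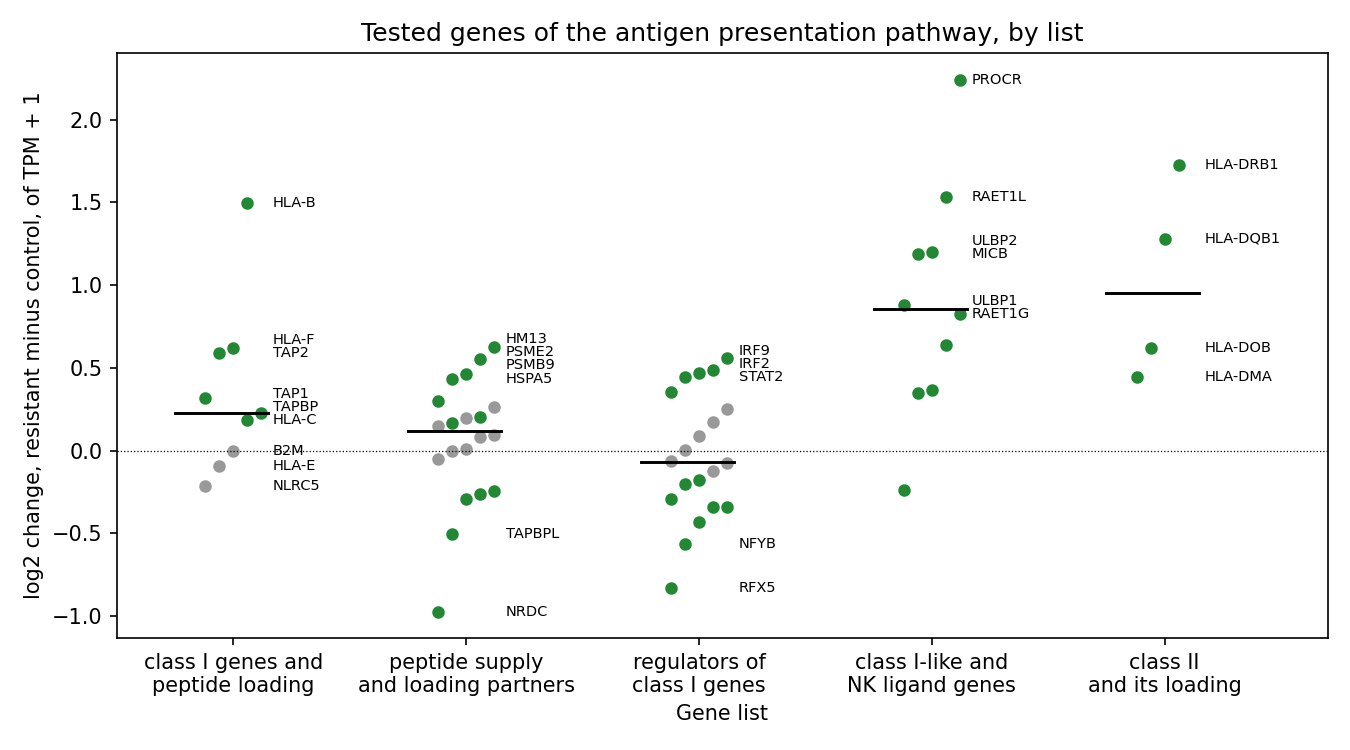
Log2 change of TPM + 1, resistant minus control, of each tested gene in 5 lists; green marks an adjusted p below 0.05, grey the others, and black lines are list medians. Partners and regulators spread on both sides of 0, and 9 of 10 tested class I-like and NK ligand genes lie above 0.

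Most class I-like molecules tested were higher in resistant cells. Of 10 tested, 9 were called higher and 1 lower (HFE, named after its values were seen), with a median log2 change of 0.85, against 0.23 for the 9 genes above; the other 5 of the 15 listed were too low to test. Over all genes tested, 24.0% were called higher and 24.7% lower. PROCR, the class I-like receptor of protein C, rose from 10.9 ± 0.848 to 55.1 ± 2.50 TPM (SD, n = 3; log2 change 2.24). MICB, a ligand of the activating NK receptor NKG2D, rose from 17.2 ± 1.38 to 40.4 ± 0.518 TPM (SD, n = 3), and ULBP2, another such ligand, from 7.84 ± 0.147 to 19.4 ± 1.26 TPM (SD, n = 3). ULBP1 rose from 1.56 ± 0.145 to 3.72 ± 0.401 TPM, RAET1G from 1.36 ± 0.0406 to 3.21 ± 0.463 TPM and RAET1L from 0.490 ± 0.259 to 3.29 ± 0.381 TPM (SD, n = 3). RAET1L passed the filter through the resistant libraries only, so its place among the 9 was partly set by that. The RAET1 and ULBP genes are close relatives, so their split is uncertain. HLA-G, a further nonclassical heavy chain, was listed at 0 in all 6 libraries.

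Most genes listed for MHC class II and its loading were low, 7 of them under 1 TPM in every library. Of 12 listed, 4 could be tested and all 4 were called higher, against 24.0% of all genes tested. HLA-DRB1 and HLA-DQB1 passed the filter through the resistant libraries only, which partly fixes that count. HLA-DRB1 was at 0.169 ± 0.0688 and 2.95 ± 0.982 TPM (SD, n = 3), and HLA-DQB1 at 0.106 ± 0.0449 and 1.70 ± 0.288 TPM (SD, n = 3). HLA-DMA, which encodes a chain of the class II peptide editor HLA-DM, rose from 9.25 ± 0.460 to 13.0 ± 1.32 TPM (SD, n = 3). HLA-DOB, which encodes a chain of its modulator HLA-DO, rose from 1.26 ± 0.492 to 2.42 ± 0.385 TPM (SD, n = 3). The genes of their partner chains, named after their values were seen, were too low to test. HLA-DMB was at 0.0373 and 0.227 TPM, and HLA-DOA was listed at 0 throughout. HLA-DRA was listed at 0 in the control libraries and at 0.0806 to 0.688 TPM in the resistant libraries. CIITA, the class II counterpart of NLRC5, was at 0.524 and 1.05 TPM and was not tested. HLA class II genes have close relatives, so their values are uncertain too.

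Of the 9 genes, 7 lie on the short arm of chromosome 6. The other 803 tested genes of chromosome 6 had a median log2 change of -0.022, with 22.7% called higher. Inside the MHC region, from 29722775 to 33143325, the 102 tested genes that are neither HLA genes nor among the 9 had a median of 0.12, with 37 called higher and 10 lower (36.3% and 9.80%). Those genes include PSMB9 and MICB above. Chromosomes 15 and 16, which carry B2M and NLRC5, had medians of 0.0050 and 0.030.

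Across the 6 libraries, the genes with the profile nearest to HLA-B, by Euclidean distance of centred log2(TPM + 1) values among 9892 protein-coding genes with a group mean of at least 5 TPM, were NKD2, CA2 and ADAM23, at distances of 0.278, 0.288 and 0.303. Nearest to TAP1 were TMBIM1, EPS15L1 and PDLIM1, at 0.0150, 0.0255 and 0.0288, and nearest to B2M were NRBP2, TFRC and SCARB2, at 0.0443, 0.0453 and 0.0479. With 2 groups of 3 libraries this measure reads little beyond the size of the group difference, and many genes share such a profile.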

How the data were processed

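The authors deposited 1 table of TPM, per the file's values (each of the 6 columns sums to 1000000), with a column per library. Of the tools used, HISAT2 is named per the submitters' processing notes. A version, the counting tool, the build and the annotation are not stated: not given in the sources used here. A gene was tested (16077 were) when 3 or more libraries reached 1 TPM. log2(TPM + 1) was fitted with limma 3.58.1 (R 4.3.3, statmod 1.5.0) on group, with trend and robust estimation, two-sided, Benjamini-Hochberg over all genes. Fold changes on this scale understate those of low genes.

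All 51537 identifiers occur in GENCODE 29 (GRCh38), the source of coordinates. TPM times union exon length was divided by its most frequent value in each library, taken as a single read. This gave whole reads (within 0.01) for 67.2% to 67.9% of values above 0, so read totals are estimates. For HLA-C, HLA-E, TAPBP and NLRC5 reads were whole; for HLA-B, HLA-F, TAP1 and TAP2 a length within 10% of the annotated one made them whole (within 0.03), and for B2M none did.

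Named were the 9 genes, up to 6 called genes per list by size of change with a mean of at least 1 TPM, and the 3 nearest profiles of HLA-B, B2M and TAP1. In the list of regulators, 1 gene that this rule names is counted but not reported here by name. The genes and lists were chosen with earlier results of these data known. Alternatives were other pseudocounts, filters and scalings (rescaling over nuclear protein-coding genes was added after the data were seen), no trend or robust estimation, a replicate block, limma-voom on rebuilt reads, and leaving out each library.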

Additional observations from a re-analysis of the deposited data

How the results depend on the processing

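HLA-B, HLA-C, TAP1, TAP2 and TAPBP kept their direction and their call under all 15 alternatives, with log2 changes of 1.05 to 1.74, 0.16 to 0.22, 0.28 to 0.36, 0.47 to 0.67 and 0.21 to 0.27. HLA-F could not be fitted with a filter at 5 TPM; without single libraries its log2 change was 0.53 to 0.73 (limma adjusted p = 0.0133 to 0.0651). Leaving out single libraries moved B2M between -0.047 and 0.037, and limma-voom on rebuilt reads gave 0.033 (adjusted p = 0.552). NLRC5 passed as lower with median-ratio scaling (-0.22) and limma-voom on rebuilt reads (-0.22), and HLA-E with rescaling over nuclear protein-coding genes (-0.11), so each of these 3 settings called 1 of the 9 genes lower. The causes were not tested.

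Same-numbered replicates did not deviate together (Pearson's r = -0.0583, -0.00170 and -0.0163 across genes, which are not independent replicates). Among the libraries of the other group, no library correlated best with the one of its own number. With the replicate block, 3433 genes were called higher and 3423 lower, against 3852 and 3963 without it, and 6 of the 9 genes were called higher in both.

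The reads of HLA-F limit its precision, and 3 libraries a group limit every exact test.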
